A study of Mus musculus with 16 samples.

Results

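The 10 genes described here encode the G1 cyclins Ccnd1, Ccnd2, Ccnd3, Ccne1 and Ccne2, the inhibitors of cyclin-dependent kinases Cdkn1a, Cdkn1b, Cdkn2a and Cdkn2b, and the kinase Cdk6. They were found through the RefSeq accession that each array probe carries, which gave 15 probes for these 10 of 21154 named genes. Of the 15 probes, 12 probes of 8 genes were bright enough to be tested, as were 27126 of all 55681 probes. Mouse embryonic stem cells (mESCs) of 3 lines had been grown in serum with leukemia inhibitory factor (LIF, 500 U/ml) or for 2 weeks in 2i, a serum-free medium with 1000 U/ml LIF, 1 µM of the MEK inhibitor PD0325901 and 3 µM of the GSK3 inhibitor CHIR99021. The design asks which changes follow the medium and which follow the DNA methylation machinery of the line. J1 is a wild-type male line, and the other lines descend from it. In TKO cells the genes Dnmt1, Dnmt3a and Dnmt3b, for DNA methyltransferases, are knocked out. In 3B3l cells (3B3-3l in the labels) a knockout of Dnmt3a and Dnmt3b is combined with exogenous Dnmt3b and Dnmt3l under constitutive expression, so a single line stands for each genotype. There were 4 arrays of J1-serum, 3 of J1-2i, 2 of TKO-serum, 3 of TKO-2i, 2 of 3B3l-serum and 2 of 3B3l-2i. J1-serum cells were grown on inactivated feeder cells and all other cultures without feeders, so the feeders and the J1-serum group cannot be told apart. The labels do not say whether arrays of a group came from separate cultures, so the p-values measure the spread between arrays, which may be technical.

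D-type cyclins bind CDK4 or CDK6 and start the phosphorylation of the retinoblastoma protein and its relatives, which releases E2F factors, and cyclin E with CDK2 completes this step before DNA replication. Inhibitors of the CIP/KIP family (p21 from Cdkn1a, p27 from Cdkn1b) bind cyclin-CDK complexes broadly, whereas those of the INK4 family (p16 from Cdkn2a, p15 from Cdkn2b) block CDK4 and CDK6, and Cdkn2a also encodes p19Arf, which stabilises p53. mESCs in serum are known for a short G1 phase, and ERK signalling, which a MEK inhibitor blocks, is a known inducer of D-type cyclins.

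Levels are log2 signal above or below the 75th percentile over the spots of each array, differences are log2 differences between group means, and a probe was called when its adjusted p was at most 0.05 and its fold change at least 2. The defining markers of mESCs were present, with 10 of 10 genes of that list well above background on every array. The genes knocked out were checked first. Dnmt3a was well above background on all J1 arrays and on no TKO or 3B3l array, and Dnmt1 lay between 1.61 and 2.45 in J1 and between -1.70 and -1.42 in TKO, still well above background. Of 3 Dnmt3b probes, 1 lay between 5.44 and 6.01 in 3B3l, the other two lay lower there than in J1 of the same medium (-3.19 to -0.94 and -0.89 to 0.86), and all 3 were lower in TKO than in J1 of the same medium but still well above background. Whether a probe lies in a deleted exon is not known here. The 14 tested genes of a fibroblast and feeder list of 20 genes summed to 50.5 to 61.6 times the array's 75th percentile in J1-serum, 13.7 to 14.8 in TKO-serum and 39.7 to 40.4 in 3B3l-serum, and to 2.56 to 4.15 in the 2i groups. Each of the 14 was well above background on at least 1 J1-serum array, and in each other group 3 to 6 were so on no array. A list of 10 markers of differentiated cells summed to 19.8 to 25.7 in J1-serum, 8.74 to 8.96 in TKO-serum, 49.3 to 56.5 in 3B3l-serum and 3.87 to 6.27 in 2i. Both marker sums therefore moved with the medium, and their part in the results on the G1 genes was not tested. In such bulk samples, fewer cells of a type and less RNA per cell cannot be told apart. Arrays lay on 3 slides. Slide 1 held all J1 and TKO arrays except 3 on slide 2 (J1-serum, J1-2i and TKO-2i, 1 each) and J1-serum replicate 1, which lay on slide 3 with all 3B3l arrays.

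The promoters of the inhibitors whose signal differed between media or lines are printed here because the lines differ in enzymes that methylate CpG dinucleotides. Each window holds the 250 bases before an annotated transcription start (RefSeq, GRCm38.p6), written 5′ to 3′ on the strand of the gene with every CG in capitals. Of the 10 genes, 7 were in the promoter table, with 10 starts, and Ccnd1, Ccnd2 and Ccne2 were not matched.
Cdkn2a, distal start, chr4:89294620-89294869, minus strand: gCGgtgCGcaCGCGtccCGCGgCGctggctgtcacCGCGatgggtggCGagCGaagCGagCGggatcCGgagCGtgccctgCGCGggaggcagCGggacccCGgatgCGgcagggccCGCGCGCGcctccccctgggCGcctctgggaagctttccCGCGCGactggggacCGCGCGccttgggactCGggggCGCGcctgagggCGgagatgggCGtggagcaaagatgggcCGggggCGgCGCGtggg
Cdkn2a, proximal start, chr4:89282193-89282442, minus strand: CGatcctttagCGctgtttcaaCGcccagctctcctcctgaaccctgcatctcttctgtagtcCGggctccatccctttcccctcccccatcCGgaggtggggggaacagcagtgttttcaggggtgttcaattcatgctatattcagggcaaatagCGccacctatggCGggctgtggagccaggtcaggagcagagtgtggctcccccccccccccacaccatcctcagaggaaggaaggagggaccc
Cdkn2b, chr4:89311033-89311282, minus strand: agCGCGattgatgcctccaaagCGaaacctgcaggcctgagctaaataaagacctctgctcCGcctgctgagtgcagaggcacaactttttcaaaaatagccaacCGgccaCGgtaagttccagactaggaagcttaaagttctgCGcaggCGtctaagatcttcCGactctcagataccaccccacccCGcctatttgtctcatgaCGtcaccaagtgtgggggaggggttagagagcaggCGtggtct
Cdkn1a, upstream start, chr17:29090729-29090978, plus strand: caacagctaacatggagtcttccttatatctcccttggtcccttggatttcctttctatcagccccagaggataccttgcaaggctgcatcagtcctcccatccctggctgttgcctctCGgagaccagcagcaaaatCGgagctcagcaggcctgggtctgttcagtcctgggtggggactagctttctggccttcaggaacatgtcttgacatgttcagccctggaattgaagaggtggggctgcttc
Cdkn1a, downstream start, chr17:29093519-29093768, plus strand: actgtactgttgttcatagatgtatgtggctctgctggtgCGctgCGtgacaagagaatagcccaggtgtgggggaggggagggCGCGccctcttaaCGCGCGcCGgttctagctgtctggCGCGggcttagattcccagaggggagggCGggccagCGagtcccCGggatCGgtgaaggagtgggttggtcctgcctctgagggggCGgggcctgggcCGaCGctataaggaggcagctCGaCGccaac
The motif counted was CG, which reads the same on both strands. At least 1 CG was present in 92.1% of the 32851 windows of this length in the table, with a median of 6 per window. The distal start of Cdkn2a held 40 and its proximal start 7, more than 98.7% and 53.7% of all windows had, respectively. Cdkn2b held 12 (more than in 66.5% of windows). The upstream start of Cdkn1a held 2 (more than in 18.8%) and its downstream start 19 (more than in 80.3%). Among the starts not printed, that of Ccne1 held 34 and that of Cdkn1b 28. The arrays do not measure methylation, and which start a transcript came from was not resolved by the probes.

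On moving from serum to 2i, cyclin D2 RNA fell in all 3 lines and Cdkn2a RNA rose in all 3, whereas Cdkn1a and Cdkn2b changed in some lines and the other measured genes stayed below the 2-fold limit. In J1, 2 of the 12 tested probes were called higher and 2 lower, against 9.78% and 11.2% of all tested probes. In TKO cells 3 were higher and 1 lower, against 5.77% and 7.9%, and in 3B3l cells 3 were higher and 2 lower, against 4.9% and 6.09%. Counted by gene, with the brightest tested probe of each as its main probe, J1 had 1 gene higher and 2 lower of 8, TKO 2 higher and 1 lower, and 3B3l 2 higher and 2 lower. The median absolute difference over the 12 probes was 0.77 in J1, 0.82 in TKO and 0.79 in 3B3l, beside 0.44, 0.36 and 0.30 over all tested probes. The genes called within each line are named below in the order of their roles.

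**Figure D1:**
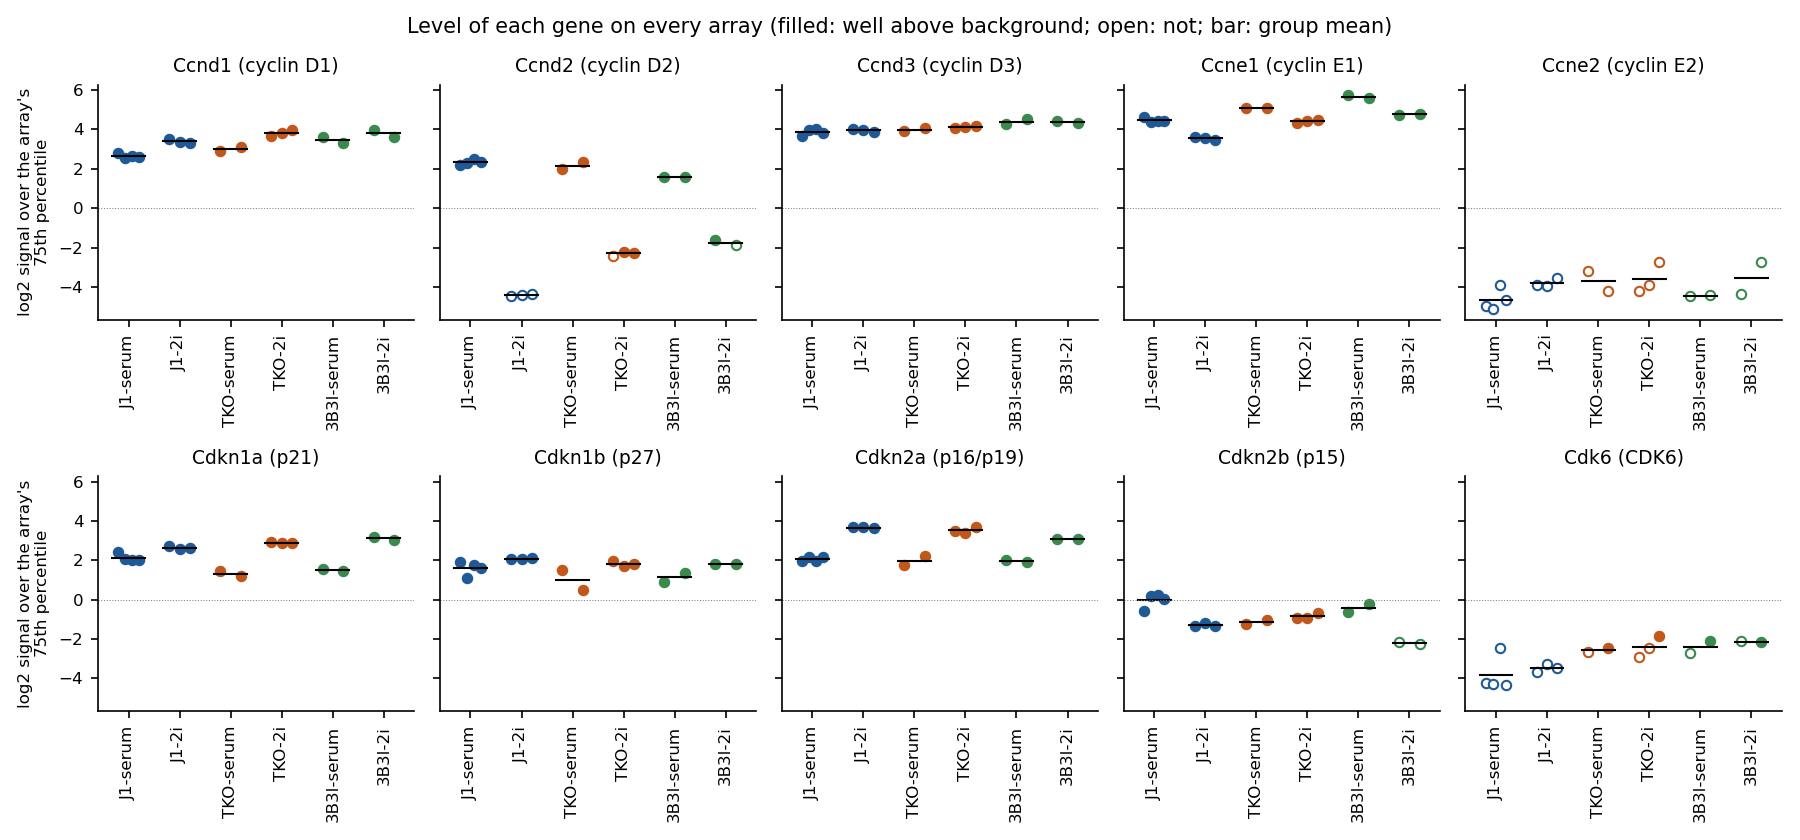
Log2 signal over the array's 75th percentile (y axis) of each of the 10 genes on each of the 16 arrays, in 6 groups (x axis), for the main probe or, for Ccne2 and Cdk6, the only probe. Filled points were well above background, open points were not, and bars are group means. Heights can be compared between groups of a gene and not between genes. Ccnd2 stands near 2 in serum and below -1.6 on every 2i array, and Ccne2 is open on all 16 arrays.

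Ccnd2, which encodes cyclin D2, had levels of 2.18, 2.30, 2.48 and 2.36 on the J1-serum arrays and -4.48, -4.41 and -4.38 on the J1-2i arrays. None of the 3 J1-2i arrays was well above background, so the loss can only be bounded. By the bound used here, Ccnd2 was at least 53.7-fold lower in J1-2i (fitted log2 difference -6.75 ± 0.11 SE, limma adjusted p = 1.57e-12). In TKO cells it went from 1.99 and 2.35 in serum to -2.42, -2.20 and -2.27 in 2i, where 2 of 3 arrays were well above background. That difference was -4.46 ± 0.13, or 22.1-fold (adjusted p = 1.72e-10). In 3B3l cells it stood at 1.57 and 1.61 in serum, against -1.62 and -1.88 in 2i, where 1 of 2 arrays was well above background. The difference was -3.33 ± 0.14, or 10.1-fold (adjusted p = 7.17e-09). In each line the lowest serum array thus lay more than 3 log2 units above the highest 2i array. Within slide 1 the differences were -6.85 in J1 and -4.40 in TKO, on slide 2 -6.71 in J1, and within slide 3 -3.33 in 3B3l, and with slide as a block they were -6.80, -4.43 and -3.33. With normexp background correction, which raises low signals, they were smaller, at -5.06, -3.89 and -2.75, the first under the bound stated for J1. Every bound given here holds for the main signal only and is not a strict minimum. It rests on the lowest value of any probe well above background on the array. A probe above that value can still lack the flag, as Ccnd2 did at -1.88 in 3B3l-2i. In serum, Ccnd2 differed from J1 by -0.16 in TKO (95% interval -0.43 to 0.11) and by -0.74 in 3B3l (-1.01 to -0.47, adjusted p = 0.000332), under 2-fold and not called.

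Ccnd1 and Ccnd3, for cyclins D1 and D3, were well above background on all 16 arrays. Ccnd1 lay between 2.54 and 2.81 in J1-serum and between 3.29 and 3.53 in J1-2i, between 2.90 and 3.09 in TKO-serum and between 3.64 and 3.95 in TKO-2i. The 2i groups did not overlap the serum groups in these lines, and the differences of 0.76 ± 0.12 (adjusted p = 0.000231) and 0.81 ± 0.15 (adjusted p = 0.00092) were under 2-fold and not called. In 3B3l the serum arrays were at 3.62 and 3.32 and the 2i arrays at 3.98 and 3.63, a difference of 0.34 (adjusted p = 0.169). The main probe of Ccnd3 gave 0.08 in J1 (95% interval -0.14 to 0.30), 0.13 in TKO (-0.13 to 0.39) and -0.01 in 3B3l (-0.29 to 0.28), and its second probe gave 0.07, -0.06 and -0.26. Of the 3 D-type cyclins, Ccnd2 alone was called between media.

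Ccne1, for cyclin E1, had 2 probes, both well above background on every array. Its main probe read 4.65, 4.39, 4.45 and 4.41 in J1-serum and 3.64, 3.57 and 3.46 in J1-2i, 5.07 and 5.11 in TKO-serum and 4.33, 4.45 and 4.48 in TKO-2i, and 5.74 and 5.59 in 3B3l-serum and 4.76 and 4.78 in 3B3l-2i. Every 2i array lay below every serum array of the same line. Its 2i differences of -0.92 ± 0.09 (J1), -0.67 ± 0.11 (TKO) and -0.90 ± 0.12 (3B3l) had an adjusted p of 2.23e-06, 0.0003 and 7.96e-05, and those of the second probe -0.79, -0.94 and -0.58. All 6 passed the adjusted p, the highest being 0.036, but not the 2-fold limit, so none was called. In TKO the second probe passed it without TKO-serum replicate 1 (-1.16) or TKO-2i replicate 3 (-1.08), and just passed it with quantile normalization and in the authors' table. The probe of Ccne2, for cyclin E2, was not well above background on any of the 16 arrays, and no direction is given for it.

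Among the CIP/KIP inhibitors, the main probe of Cdkn1a (printed on 10 spots per array) read 2.43, 2.08, 2.00 and 2.04 in J1-serum and 2.73, 2.60 and 2.63 in J1-2i. TKO cells gave 1.45 and 1.19 in serum and 2.93, 2.90 and 2.87 in 2i, and 3B3l cells gave 1.55 and 1.47 in serum and 3.18 and 3.04 in 2i. The media did not overlap in any line, and the serum arrays of TKO and 3B3l lay below those of J1. Cdkn1a rose 2.98-fold in TKO (1.57 ± 0.13, adjusted p = 1.22e-06) and 3.05-fold in 3B3l (1.61 ± 0.14, adjusted p = 3.42e-06), and the J1 difference was 0.51 ± 0.11 (adjusted p = 0.00181), not called. Its second probe, assigned to another Cdkn1a transcript, gave 0.23 in J1 and -0.41 in TKO, not called, and in 3B3l, where neither 2i array was well above background, it was at least 1.47-fold lower (fitted difference -0.64, not called). Its correlation with the main probe over the 16 arrays, which share culture and slide, was -0.26. In TKO, where both probes were well above background on every array, their estimates had opposite signs, and the statements on p21 RNA hold for the main probe only. Cdkn1b, for p27, lay at 1.91, 1.11, 1.77 and 1.59 in J1-serum and 2.05, 2.09 and 2.10 in J1-2i. Its TKO-serum arrays, at 1.52 and 0.50, differed by more than the arrays of any other group, and its TKO-2i arrays were at 1.94, 1.73 and 1.83. The differences between media of Cdkn1b were 0.49, 0.82 and 0.68 in J1, TKO and 3B3l (adjusted p = 0.101, 0.0362 and 0.13), all under 2-fold and not called. Without TKO-serum replicate 1 the TKO difference of Cdkn1b was 1.34 (adjusted p = 0.00277), which is over 2-fold, and without TKO-serum replicate 2 it was 0.31.

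Among the INK4 inhibitors, Cdkn2a rose in all 3 lines on both of its probes. The main probe read 1.98, 2.15, 1.99 and 2.16 in J1-serum and 3.68, 3.67 and 3.64 in J1-2i. TKO cells gave 1.74 and 2.20 in serum and 3.51, 3.40 and 3.68 in 2i, and 3B3l cells gave 2.03 and 1.94 in serum and 3.06 and 3.11 in 2i. The serum groups overlapped one another, and each 2i array lay above all serum arrays. The increases were 3.02-fold in J1 (1.59 ± 0.11, adjusted p = 1.13e-07), 2.94-fold in TKO (1.56 ± 0.13, adjusted p = 1.54e-06) and 2.14-fold in 3B3l (1.10 ± 0.15, adjusted p = 0.0001). The second probe gave 1.51, 1.55 and 1.14, and the probes correlated at 0.98 over the 16 arrays. Both carry 1 accession, so the p16 and p19Arf transcripts were not told apart. With slide as a block the main probe gave 1.56, 1.55 and 1.10, within slide 1 1.58 in J1 and 1.56 in TKO, and on slide 2 1.52 in J1. In the authors' table the main probe in 3B3l was just under 2-fold, so its call was lost there. A plain t-test on each probe lost every call of a 2i response in 3B3l and that of the second Cdkn2a probe in TKO. In 3B3l that test called 45 of all 27126 tested probes, where limma called 1328 higher and 1652 lower.

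Cdkn2b, which lies beside Cdkn2a on chromosome 4 and encodes p15, did not follow it. Its main probe read -0.59, 0.19, 0.25 and 0.05 in J1-serum and -1.34, -1.19 and -1.32 in J1-2i, and it fell 2.39-fold (-1.26 ± 0.18, adjusted p = 7.97e-05). In 3B3l it read -0.63 and -0.21 in serum and -2.16 and -2.23 in 2i, where neither array was well above background. Its bound there equals the fitted fold, so it is not a minimum. Cdkn2b fell 3.43-fold in 3B3l (-1.78 ± 0.24, 95% interval -2.29 to -1.26, adjusted p = 0.000106, and -1.46 with normexp). In TKO it read -1.23 and -1.02 in serum and -0.94, -0.93 and -0.68 in 2i, a difference of 0.27 (95% interval -0.20 to 0.75, adjusted p = 0.37). Its TKO-serum arrays overlapped those of J1-2i, and its 3B3l-serum arrays overlapped those of J1-serum. The lowest J1-serum value came from replicate 1, on slide 3, and within slide 1 the J1 difference was -1.48. A second Cdkn2b probe was well above background on 3 arrays only, all grown in serum (2 J1, 1 3B3l), and was not tested. The probe of Cdk6, the kinase partner of D-type cyclins, was well above background on 4 of 16 arrays, 1 in each of the TKO and 3B3l groups and none of J1, and it was not tested either.

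**Figure D2:**
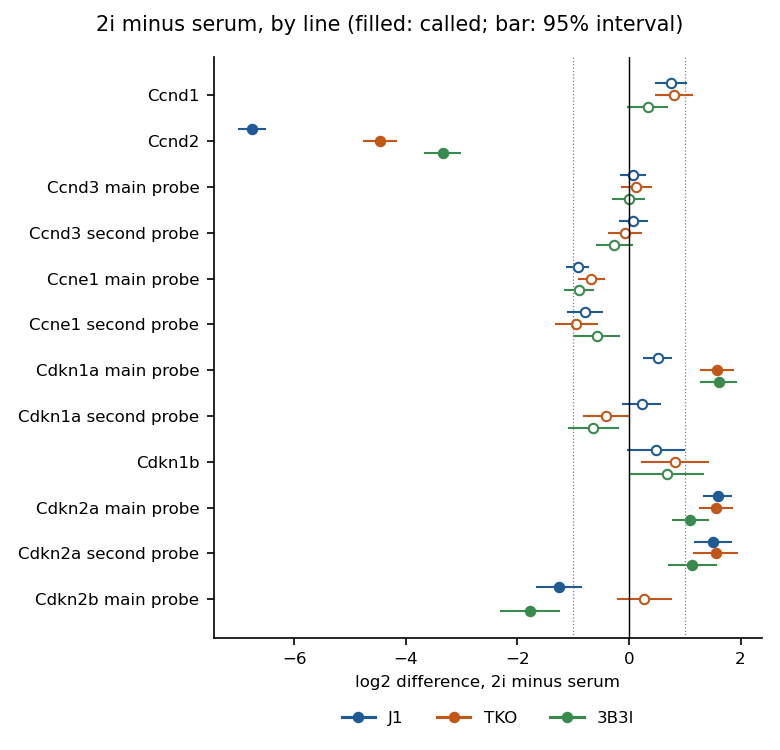
Log2 difference between 2i and serum (x axis) of the 12 tested probes (y axis) in J1, TKO and 3B3l cells. Points are estimates from the model over all arrays, bars are 95% intervals, filled points were called, and dotted lines mark 2-fold. Ccnd2 lies at -6.75, -4.46 and -3.33, both Cdkn2a probes lie between 1.10 and 1.59, and the Cdkn2b estimate of TKO lies on the other side of 0 from those of J1 and 3B3l. Estimates of Ccnd2 in J1 and of Cdkn2b and the second Cdkn1a probe in 3B3l rest on 2i groups with no array well above background.

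Between lines in one medium, cyclin E1 was called higher on both probes in 3B3l than in J1 cells. In TKO it also lay above J1, mostly by less than 2-fold. Residual cyclin D2 signal in 2i was higher in both mutant lines than in J1. TKO-serum against J1-serum gave 1 probe higher and 1 lower, against 8.01% and 7.34% of all tested probes. Cdkn2b was 2.14-fold lower in TKO-serum (-1.10 ± 0.21, adjusted p = 0.000914), a call lost without TKO-serum replicate 1 (-0.99). The second Ccne1 probe was 2.11-fold higher (1.08 ± 0.16, adjusted p = 0.000149), a call lost without TKO-serum replicate 2 (0.86) and in the authors' table (0.99), and the main Ccne1 probe gave 0.62, not called. Cdkn1b gave -0.58 with both TKO-serum arrays, not called, -1.10 without replicate 1, called, and -0.07 without replicate 2. In 2i, TKO against J1 gave 1 probe higher and 0 lower, against 4.28% and 3.38%. That probe was Ccnd2, which was at least 2.17-fold higher in TKO-2i than in J1-2i (fitted difference 2.13 ± 0.12, adjusted p = 1.24e-07), and normexp gave 1.11. Without TKO-2i replicate 1 the second Ccne1 probe was called as well (1.06, from 0.93). The main Ccne1 probe gave 0.86 ± 0.09 in 2i with all arrays (adjusted p = 3.44e-05), under 2-fold and not called.

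3B3l-serum against J1-serum gave 2 probes higher and 0 lower, against 8.97% and 8.6%. Both belonged to Ccne1, which was 2.28-fold higher in 3B3l-serum on its main probe (1.19 ± 0.10, adjusted p = 1.15e-06) and 2.11-fold on its second (1.08 ± 0.16, adjusted p = 0.000123). Within slide 3, against J1-serum replicate 1 alone, these were 1.01 and 1.21. With quantile normalization they were 0.90 and 0.84, and values of 0.87 and 0.83 came from the authors' table, so both calls were lost in each. The second Cdkn1a probe was just under the limit with all arrays (adjusted p = 0.000441) and was called when J1-serum replicate 1 (-1.13) or 3B3l-serum replicate 2 (-1.03) was left out, with quantile normalization and in the authors' table. In 2i, 3B3l against J1 gave 3 probes higher and 1 lower, against 8.55% and 6.72%. Ccne1 was again higher, by 2.31-fold on the main probe (1.21 ± 0.11, adjusted p = 3.81e-06) and 2.44-fold on the second (1.29 ± 0.17, adjusted p = 8.68e-05). With slide as a block the main Ccne1 probe gave 0.97, not called, and it was also just under 2-fold in the authors' table and after quantile normalization. Ccnd2 was at least 3.18-fold higher in 3B3l-2i (fitted difference 2.68 ± 0.13, adjusted p = 3.92e-08), and normexp gave 1.42, under that bound. The second probe of Cdkn1a was at least 3.44-fold lower (fitted difference -1.86 ± 0.18, adjusted p = 9.12e-06), while the main probe gave 0.46, not called. For that second probe normexp gave -1.39 and slide as a block -1.33, both under the bound. No J1-2i array shared a slide with 3B3l arrays, so the slide enters this comparison only through J1-serum replicate 1. Cdkn2a differed from J1 by -0.09 in serum and -0.58 in 2i in 3B3l cells and by -0.10 and -0.13 in TKO cells, none called.

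**Figure D3:**
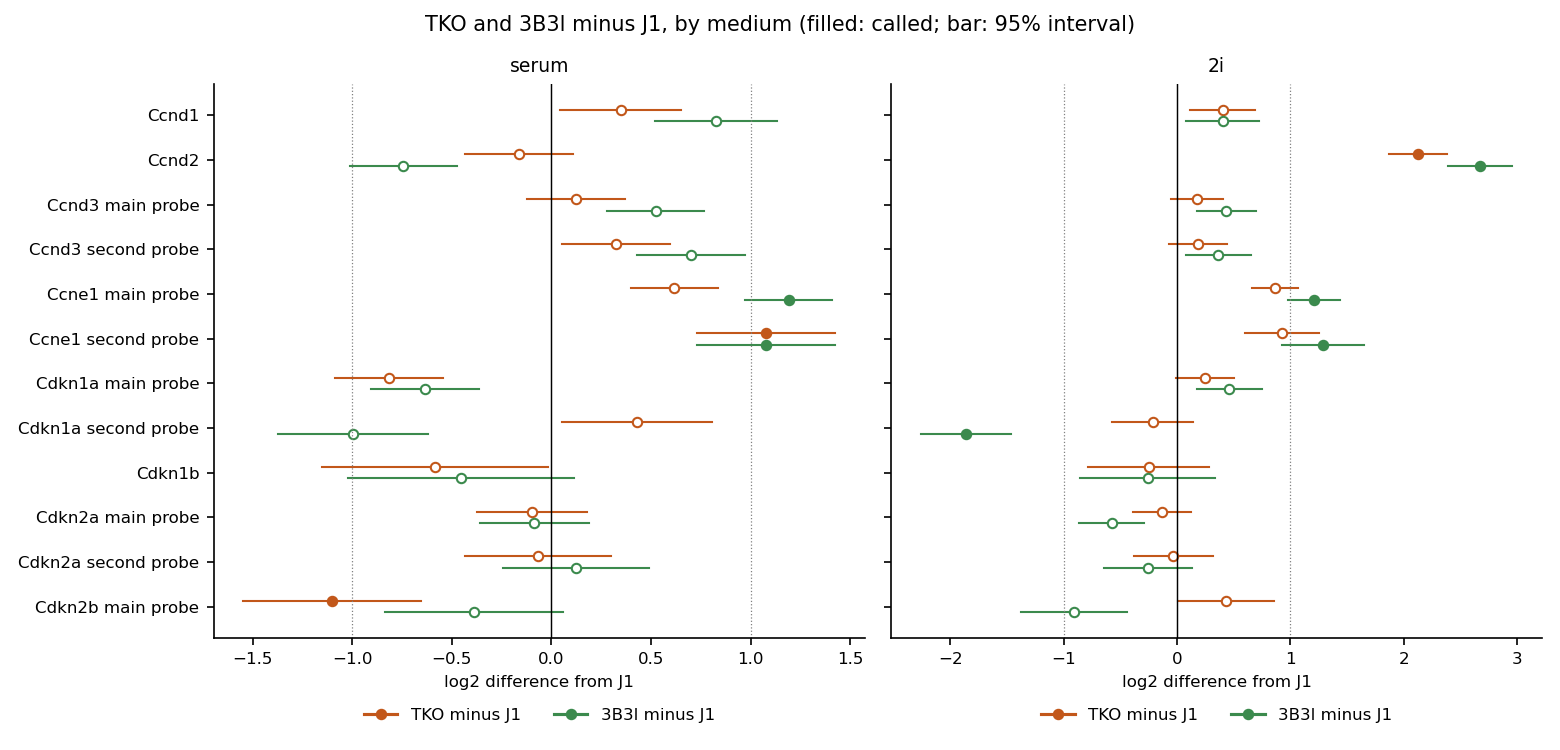
Log2 difference of TKO and 3B3l from J1 (x axis; the panels differ in scale) of the 12 tested probes (y axis), in serum (left) and in 2i (right). Bars are 95% intervals, filled points were called and dotted lines mark 2-fold. In serum the Ccne1 estimates lie between 0.62 and 1.19. In 2i the Ccnd2 estimates lie at 2.13 and 2.68, with J1-2i not well above background.

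Whether the response to 2i itself differed between lines was tested as an interaction in the same model. TKO differed from J1 on 3 of 12 probes, against 13.9% of all tested probes, and 3B3l differed from J1 on 2, against 15.3%. For Ccnd2 the fall was smaller in TKO by 2.29 ± 0.17 (adjusted p = 1.39e-06) and in 3B3l by 3.42 ± 0.18 (adjusted p = 7.45e-08). With J1-2i set to its bound, these differences were 1.28 and 2.41, and with normexp they were 1.17 and 2.31. For Cdkn2b the response of TKO lay 1.53 ± 0.28 above that of J1 (adjusted p = 0.00155), and that of 3B3l lay at -0.52 (adjusted p = 0.235). For the main Cdkn1a probe the rise exceeded that of J1 by 1.06 ± 0.17 in TKO (adjusted p = 0.000593) and 1.09 ± 0.18 in 3B3l (adjusted p = 0.000659). Both Cdkn1a calls were lost without J1-serum replicate 1 (0.97 and 1.00) and with slide as a block (0.96 and 1.00), just under the 2-fold limit, and their adjusted p stayed under the threshold. The TKO call on Cdkn1a was also lost without TKO-serum replicate 2 (0.93) and within slide 1 (0.90). J1-serum, the group on feeders, enters every one of these differences. For both Cdkn2a probes the responses of TKO and J1 differed by -0.04 (95% interval -0.41 to 0.34) and 0.04 (-0.47 to 0.54). Those of 3B3l and J1 differed by -0.49 (-0.89 to -0.09, adjusted p = 0.0683) and -0.38 (-0.91 to 0.15), not called.

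Other genes of the G1 pathway were counted by their main probes in 8 lists with 82 tested genes. In J1, 3 of these rose and 18 fell in 2i, beside 10.1% and 12.6% of all 13917 tested genes. In TKO 3 rose and 15 fell, beside 6.7% and 9.05%, and in 3B3l 1 rose and 15 fell, beside 5.6% and 7.93%. Of 12 genes acting in ERK, Wnt and Myc signalling to D-type cyclins, 7 fell in J1 cells, 7 in TKO cells, 6 in 3B3l cells and none rose. Those that fell in all 3 lines were Myc, a transcription factor that drives G1 entry (-1.74, -2.61 and -1.76 in J1, TKO and 3B3l), Egr1, an immediate early target of ERK (-2.89, -4.65 and -5.79), Fosl1, and the ERK feedback genes Dusp6 (-2.15, -1.39 and -1.74) and Spry4 (-4.53, -3.41 and -1.31). Spry4 in J1-2i and Egr1 in 3B3l-2i were not well above background, and the bounds are at least 7.86-fold and 22.4-fold lower. Of 15 p53 targets and regulators, 6, 5 and 5 fell and none rose. Pmaip1 and Bbc3, which encode the pro-apoptotic proteins Noxa and Puma, Gadd45a and Eda2r fell in all 3 lines, with Pmaip1 at -2.90, -4.75 and -2.12 and Gadd45a at -1.61, -1.26 and -2.21. Pmaip1 was not well above background in TKO-2i, where it was at least 23.1-fold lower. Cdkn1a, itself a known p53 target, is not in that list.

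Of 4 other CDK inhibitors, Cdkn1c, for the CIP/KIP protein p57, fell in all 3 lines (-4.45 ± 0.12, -4.28 ± 0.14 and -4.18 ± 0.15, the last on arrays not well above background, at least 11.0-fold lower). Cdkn2c, for the INK4 protein p18, was higher in 2i by at least 3.34-fold in TKO and by 1.65-fold or more in 3B3l, and gave -0.32 in J1, not called. Of 13 pocket proteins and E2F factors, 3 fell and 1 rose in J1, 2 fell and 1 rose in TKO, and 2 fell in 3B3l. Rb1, for the retinoblastoma protein, fell in all 3 lines (-1.87, -1.83 and -1.05), as did E2f8, a repressor E2F (-1.29, -1.15 and -1.49). Of 15 replication genes known as E2F targets, 1 was called in J1 (Pola1, 1.73) and none in 3B3l. Their median differences were 0.31, 0.31 and 0.04, beside 0.05, 0.07 and 0.00 over all genes. The other lists, of 6 CDKs and activators, 5 later cyclins and 12 genes of cyclin turnover, gave 1, 1 and 0 calls in J1, 0 in TKO, and 0, 0 and 1 in 3B3l. Between lines, the list genes named are the called ones with the most extreme fitted differences from J1, and where a group was not well above background the bound is given, by which they need not rank first. Higher were Myc in serum (2.42 in TKO and 3.47 in 3B3l) and Spry4 in 2i (at least 1.73-fold and 5.36-fold). Lower were Cdkn2c in serum (TKO by 3.83-fold or more, 3B3l by 2.28-fold or more) and, in 2i, Pmaip1 in TKO (at least 9.40-fold) and Egr1 in 3B3l (at least 2.30-fold).

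**Figure D4:**
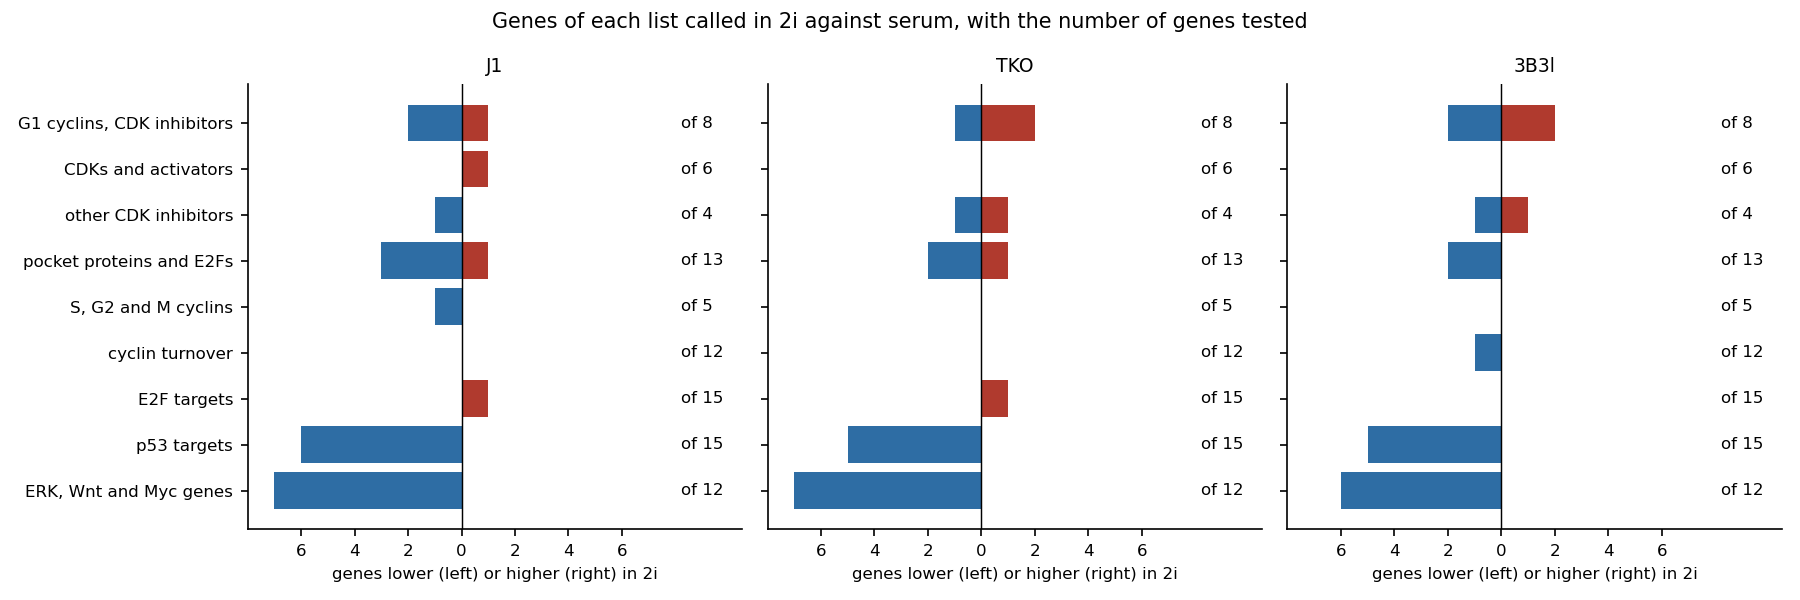
Number of genes called lower (bars to the left) or higher (bars to the right) in 2i than in serum (x axis) in each of 9 gene lists (y axis), for J1, TKO and 3B3l cells, with the number of genes tested on the right of each panel. The ERK, Wnt and Myc list has 7, 7 and 6 genes lower and none higher, and the G1 cyclins and CDK inhibitors have genes on both sides in every line.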

How the data were processed

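Total RNA was hybridised to 16 one-colour (Cy3) Agilent 8 × 60k mouse arrays by the authors. Per the file headers, the deposited processed signal is an intensity made by Agilent Feature Extraction (version 11.5.1.1), background-subtracted and detrended, with no normalization between arrays. Log2 values deposited by the authors in a table, quantile-normalized judging by their distribution, served as an alternative only, because 13 of 16 columns matched another replicate of their group best. Here the log2 intensity minus the 75th percentile of the array was used, without outlier spots and with spots of a probe averaged. A probe was tested if, in 1 or more groups, all arrays had it well above background (27126 probes, 9277 of them without a gene name). That flag was set for 39.7% to 49.0% of spots per array, and the number of arrays limits the precision. One limma model (3.58.1, R 4.3.3) of 6 group means with eBayes and Benjamini-Hochberg adjustment over all tested probes gave two-sided tests, standard errors and 95% intervals. A fold against a group not well above background is a bound, the mean of the bright group over that of the dim group. Per array, the dim group took the higher of its value and the lowest value of any probe well above background. Such a bound is not a strict minimum, and where the dim values were the higher it equals the fitted fold. Genes were named through RefSeq accessions of the probes (28026 probes of 21154 genes). Genes outside the 10 were named if called the same way in all 3 lines or if largest in a comparison, except for 1 gene that is not reported here and for differences of responses that rest on a group not well above background. The 10 genes, the lists and the tests were chosen with earlier results of these data known. Alternatives were another scaling, background correction, filter, threshold, table and test, slide or replicate number as a block, single slides, and leaving out each array. The model code was tested on simulated data.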

Additional observations from a re-analysis of the deposited data

Results flagged for a closer look

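One array stood apart from its group. On the second Cdkn1a probe, J1-serum replicate 1 was at -1.13, and the other 3 J1-serum arrays lay between -0.64 and -0.55. This was 1 of the 12 tested probes checked in the only group of 4 arrays, and chance alone sets about 1 in 20 such groups apart.

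Responses to 2i that differed between lines by the interaction test were those of Ccnd2 (2.29 in TKO minus J1 and 3.42 in 3B3l minus J1), of the main Cdkn1a probe (1.06 and 1.09) and of Cdkn2b (1.53 in TKO minus J1). The Ccnd2 values rest on J1-2i arrays that were not well above background.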

How the results depend on the processing

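Over 1956 recomputed differences of single probes, no called direction turned, 1889 kept their side of the call, 26 lost a call and 41 gained one, 29 of these because the fold limit was dropped. Of 166 recomputed counts of called probes, 141 stayed within 1.5 times. Dropping the fold limit gave 8, 8 and 8 probes for 2i against serum in J1, TKO and 3B3l, 4 for TKO against J1 in serum, 4 in 2i, 8 for 3B3l against J1 in serum and 10 in 2i. The shares of all tested probes given above hold only with the 2-fold limit. Shares without it were not counted, so these counts cannot be read as unusual. Testing only probes well above background on all 16 arrays, which removes Ccnd2, Cdkn2b and the second Cdkn1a probe, gave 2 in J1, 3 in 3B3l, 1 for TKO against J1 in serum and 0 in 2i, 2 for 3B3l against J1 in 2i, and 1 and 1 for the differences of responses of TKO and 3B3l from J1. An unpaired t-test, which the study names for its PCR assays and for single genes in its expression figures, gave 0 in 3B3l (5 at an unadjusted p under the threshold) and 1 for TKO against J1 in serum. The array methods of the study name limma. Over all 27126 tested probes the t-test called 45 in 3B3l and 3440 for TKO against J1 in serum. The authors' table gave 1 for TKO and 1 for 3B3l against J1 in serum, and quantile normalization 1 for the latter. For 3B3l, both Ccne1 probes lost their call in these settings and the 1 probe called was the second of Cdkn1a. Within slide 1, TKO against J1 in 2i gave 2. Background correction by normexp and slide as a block each gave 1 for the difference of responses of 3B3l and J1. Leaving out 1 array gave 1 to 2 for TKO against J1 in serum and in 2i, and 1 to 2 for the difference of 3B3l and J1.

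The replicate numbers did not pair the arrays: same-numbered arrays correlated above 0.1 in their deviations in 5 of 33 pairs (range -0.25 to 0.27). With a replicate block the counts were 4, 4 and 5 for 2i against serum in J1, TKO and 3B3l, and none of the 108 calls changed. Array median scaling moved the median of all probes in J1 from 0.04 to 0.21. With that scaling the Cdkn1a difference of TKO and J1 was 0.93, not called. Normexp gave 0.97 for that of 3B3l. Signal over background was 1 limit: Ccne2, Cdk6 and 1 Cdkn2b probe gave no test, and Ccnd2 in J1-2i only a bound. The cause of each change was not tested.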

Other observations

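The genes outside the 10 whose main probe followed each gene most closely over the 16 arrays were listed among 13620 genes with complete values, as a description of arrays that share lines, media and slides. Ccnd2 was followed by Chrna9, Gchfr and Tcfl5 (Pearson correlations of 0.993, 0.990 and 0.989), and Cdkn2a by Serpinb1a, Ifi35 and Cdo1 (0.991, 0.983 and 0.981). Ccne1 was followed by Lin28a, Nop10 and Pclaf (0.971, 0.967 and 0.964), and Ccnd1 by Abhd17c, Cstf2t and Stk19 (0.974, 0.961 and 0.953). For Cdkn1a these were Hs1bp3, Nipal3 and Rab11fip5 (0.973, 0.970 and 0.961), for Cdkn2b Podxl, Aldh1a1 and Axl (0.933, 0.929 and 0.926), for Ccnd3 Nol12, Ppp1r2 and Chrac1 (0.938, 0.929 and 0.928), and for Cdkn1b 1700042G15Rik, Fn1 and Zmynd8 (0.892, 0.878 and 0.877).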
